A study of Mus musculus with 8 samples.

Results

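Interferon-stimulated genes are the genes whose transcription interferons switch on, and the set examined here was a named list of 43 such genes. All 43 were found by symbol among the 22740 protein-coding genes listed in the count table, and all 43 passed the filter on low counts that left 15163 genes for testing. The gene the count table names Gbp5 carries an identifier that GENCODE vM21 names Gbp2b, so the values given under Gbp5 may belong to that neighbour, and no promoter was matched to it. The members were grouped by role into IFIT effectors, the ubiquitin-like modifier Isg15 with its protease Usp18, transcription factors, the OAS family, Mx and other antiviral proteins, RNA sensors, a mixed group of IFI-type genes, guanylate-binding proteins (GBP), immunity-related GTPases (IRG), class I antigen processing, chemokines and the IFITM family.

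Type I and type III interferons bind their own receptors and activate JAK kinases, and a transcription factor complex that includes STAT2 and IRF9 then binds the interferon-stimulated response element. Interferon gamma has a receptor of its own and acts on the gamma-activated site, and most of the genes described here answer to one or both routes. In skin, keratinocytes, fibroblasts and resident or recruited leukocytes can all respond to interferon.

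RNA was sequenced from dorsal skin of female BALB/c mice aged 6 to 8 weeks, all kept on a low-fibre diet. Each of the 4 groups held 2 mice, and every mouse gave its own library. The baseline CTL group (replicates 1 and 2) drank water, the vehicle of the labels, and had no exposure to house dust mite (HDM) extract. The baseline butyrate group (replicates 1 and 3) drank sodium butyrate, a short-chain fatty acid, at 400 mM and also had no HDM. The lesional CTL group (replicates 4 and 5) and the lesional butyrate group (replicates 3 and 4) received the same drinks, and HDM was applied to shaved skin under an occlusive dressing 4 times, 15 µg each, over 2 weeks, with butyrate given from 2 weeks before the first application. The labels call this HDM-exposed skin atopic dermatitis. HDM and the set of mice therefore differ together between baseline and lesional skin and cannot be told apart. The sources used here do not say whether the sequenced baseline skin was shaved or dressed, so those steps may differ too.

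Library totals ran from 18004136 to 21085544 counts, and levels are given as CPM, read counts scaled to a common library size after TMM normalization. Baseline butyrate replicate 3 stood apart: the summed level of hair-follicle growth-phase (anagen) markers was 21729 CPM in it and 25.4 to 37.6 CPM in the other 7 mice, and its keratinocyte marker sum was 8920 CPM against 14316 to 21163 CPM. It was the lowest of the 8 mice for 32 of the 43 members and was below the gene's mean over mice for every one of the 43. Results that rest on it are given with and without it. The skin label was borne out by keratinocyte markers such as Krt5, Krt10 and Krt14, keratins of the epidermis, of which Krt14 ran from 2420 to 5919 CPM over the 8 libraries. In bulk tissue, fewer cells of a type and less RNA per cell cannot be told apart.

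Promoter windows from 250 bases before to 50 bases after the annotated start were matched by symbol for 33 of the 43 members (RefSeq, GRCm38.p6). The core of the interferon-stimulated response element, taken as GAAA, any 2 bases and GAAA again on either strand, occurred in 18 of those 33 windows (54.5%) and in 3.99% of the 27025 genes with a window. The gamma-activated site core, TTCNNNGAA, which reads the same on both strands, occurred in 10 of the 33 (30.3%) and in 9.55% of all genes. Overlapping matches were counted separately, and a match is only a description of the letters. The promoters of 5 members are printed to show how the response element is arranged in genes with 3, 2 and 1 copies and in one with none, with matches in capitals: Isg15 at chr4:156200769-156201068 (minus strand), Ifit3 at chr19:34583279-34583578 (plus), Oas3 at chr5:120777610-120777909 (minus), Ifitm1 at chr7:140967826-140968125 (plus) and Ifitm3 at chr7:141010695-141010994 (minus).
Isg15: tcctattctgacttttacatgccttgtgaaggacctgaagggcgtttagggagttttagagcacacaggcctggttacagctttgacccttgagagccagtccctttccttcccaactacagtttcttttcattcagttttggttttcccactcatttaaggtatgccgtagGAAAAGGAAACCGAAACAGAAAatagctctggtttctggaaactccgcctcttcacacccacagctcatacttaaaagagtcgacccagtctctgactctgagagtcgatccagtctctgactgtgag
Ifit3: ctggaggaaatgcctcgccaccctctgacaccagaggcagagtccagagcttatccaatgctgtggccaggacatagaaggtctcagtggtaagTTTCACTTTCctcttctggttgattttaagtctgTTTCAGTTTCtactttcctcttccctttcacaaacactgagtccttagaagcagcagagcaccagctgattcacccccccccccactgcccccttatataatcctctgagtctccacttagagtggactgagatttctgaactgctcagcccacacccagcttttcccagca
Oas3: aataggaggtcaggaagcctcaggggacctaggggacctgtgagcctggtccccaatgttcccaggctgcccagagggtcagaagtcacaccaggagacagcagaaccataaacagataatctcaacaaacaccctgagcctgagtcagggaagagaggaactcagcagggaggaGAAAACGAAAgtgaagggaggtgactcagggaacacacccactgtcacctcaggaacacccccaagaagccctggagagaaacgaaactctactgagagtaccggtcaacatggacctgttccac
Ifitm1: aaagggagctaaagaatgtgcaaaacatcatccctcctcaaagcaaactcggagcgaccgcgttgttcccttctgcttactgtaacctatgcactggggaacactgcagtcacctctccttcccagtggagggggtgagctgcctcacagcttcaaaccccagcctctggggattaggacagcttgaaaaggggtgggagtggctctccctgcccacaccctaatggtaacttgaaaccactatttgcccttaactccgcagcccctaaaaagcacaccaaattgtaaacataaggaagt
Ifitm3: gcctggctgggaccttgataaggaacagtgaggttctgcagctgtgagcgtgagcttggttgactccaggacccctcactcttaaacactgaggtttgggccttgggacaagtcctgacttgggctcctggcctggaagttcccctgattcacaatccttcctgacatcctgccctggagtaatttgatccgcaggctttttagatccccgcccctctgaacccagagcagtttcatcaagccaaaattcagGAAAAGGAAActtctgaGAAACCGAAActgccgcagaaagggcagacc

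In Isg15 the 3 matches overlap and begin 78, 72 and 66 bases before the start. Ifit3 has matches beginning 156 and 122 bases before it, and Oas3 has one beginning 75 bases before it. The 2 matches of Ifitm3 lie downstream, beginning at bases 2 and 19 after the start. No match was found in the Ifitm1 window, which says only that these letters are not in it. That window begins at base 140967826, inside the gene that GENCODE vM21 starts at base 140967221. Bases before that gene start were not searched. Across the 33 genes the median log2 difference between lesional butyrate and lesional CTL skin was -0.18 for the 18 with the response element core and -0.07 for the 15 without, given as a description.

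Per kilobase of annotated exon, Ifitm3, Ifitm2 and Ifi27l2a had the highest mean levels over the 8 mice, at 295.0, 269 and 258 CPM per kb. IFITM proteins block the entry of viruses into cells, and Ifi27l2a is a small interferon-induced protein. Bst2, the antiviral protein tetherin, followed at 32.9 CPM per kb and then Ifi35 at 19.3. At the other end were the chemokines Cxcl9 and Cxcl10, which attract T cells, at 1.05 and 1.11 CPM per kb, and Oas3 at 1.58. Ifitm3 and Ifitm2, the highest in this order, overlapped in CPM: Ifitm2 ran from 100 to 252 CPM over mice and Ifitm3 from 66.8 to 259. The lowest raw count of any member in any mouse was 25. The span from the lowest to the highest mouse was 1.61-fold for Irf9, an interferon-signal transcription factor, and 11.3-fold for Ifitm1. The plot of relative levels shows these differences for every member.

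**Figure D1:**
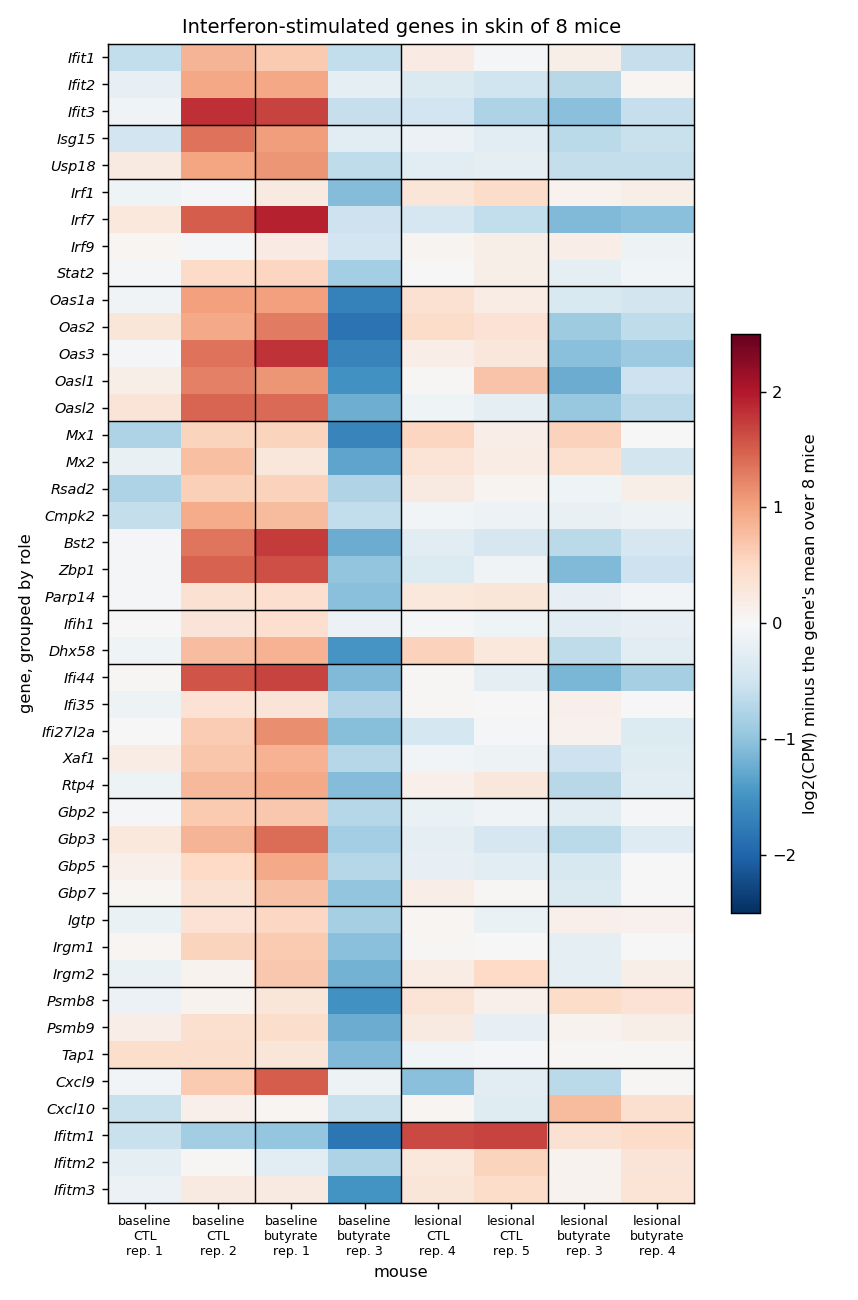
Each row is one member, grouped by role, and each column one mouse; colour is log2(CPM) minus the gene's mean over the 8 mice, from blue (lower) to red (higher). Most members are high in baseline CTL replicate 2 and baseline butyrate replicate 1 and low in baseline butyrate replicate 3, while the 4 lesional mice differ less, apart from Ifitm1, high in both CTL mice, and the OAS rows, lower in both butyrate mice.

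The first comparison asks whether butyrate drinking changed these genes in HDM-exposed skin. No member passed edgeR's quasi-likelihood test at a Benjamini-Hochberg false discovery rate (FDR) below 0.1 with a fold-change above 2, and neither did any of the 15163 genes (0%). At an unadjusted p under 0.05 there was 1 member, Ifitm1, and 734 genes. DESeq2 called 1 member and 124 genes, and limma-voom 0 members and 1 gene. Member FDR values ran from 0.737 to 1. The log2 difference was below 0 for 33 of 43 members, against 50.9% of all genes, with a median of -0.22 against -0.01 over all genes. The 2 butyrate mice lay below both CTL mice for 21 members, and 22.5% of all genes were arranged that way. They lay above both for 4 members (Igtp, Psmb8, Tap1 and Cxcl10), against 22.4% of all genes.

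The OAS family, which senses double-stranded RNA and, in its catalytic members, activates RNase L, was lower in both butyrate mice than in both CTL mice for all 5 members of the set. This did not hold for the family at large: among relatives outside the set, Oas1f was 22.3 and 28.2 CPM in CTL and 56.9 and 43.3 CPM in butyrate skin, log2 0.99 (SE 0.691, FDR 1), and Oas1c overlapped between groups. Oas2 (chr5:120730333-120749853) was 52.0 and 48.4 CPM in the CTL mice and 20.4 and 24.2 CPM in the butyrate mice, log2 -1.17 (SE 0.862, FDR 1). Its neighbour Oas3 (chr5:120753098-120777661) was 9.39 and 10.2 CPM against 4.06 and 4.47, log2 -1.20 (SE 1.01, FDR 1). Oasl1, an OAS-like protein, was 7.15 and 11.5 CPM against 2.96 and 4.88, log2 -1.25 (SE 0.845, FDR 1). The groups did not overlap for any of these. Oasl2 gave log2 -0.62 and Oas1a -0.71. The median of the 5 was -1.17, and the summed level was 112 to 115 CPM in CTL and 53.9 to 63.5 CPM in butyrate skin.

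Ifitm1 (chr7:140967221-140969825) was 46.1 and 47.2 CPM in lesional CTL mice and 19.0 and 20.1 CPM in lesional butyrate mice. The groups were well apart, and the log2 difference was -1.25 (SE 0.278, 95% interval -2.02 to -0.48, unadjusted p = 0.00361 and FDR 0.737 in edgeR). Its relatives Ifitm2, 205 and 252 against 180 and 213 CPM, and Ifitm3, 231 and 259 against 199 and 238 CPM, overlapped between groups. Their log2 differences were -0.22 (95% interval -0.82 to 0.39) and -0.16 (-1.56 to 1.23).

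The result depended on which mice shared the estimate of spread. With only the 4 lesional mice fitted, Ifitm1 passed (FDR 0.0738) and 0.168% of genes passed. At an unadjusted p under 0.05 that fit had 13 members, 12 lower and 1 higher, and 12.8% of all genes. With both baseline butyrate mice left out, Ifitm1 (FDR 0.0357) and Oas2 (FDR 0.0942) passed and 1.25% of genes did. The SE of Oas2 was 0.862 in the fit of all 8 mice and 0.218 in that one, with almost the same log2 difference. Leaving out either baseline butyrate mouse alone gave the same 2 genes, and leaving out any other mouse gave 0.

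Ifi44, an interferon-induced protein, was 13.1 and 11.0 CPM in CTL and 5.87 and 7.21 CPM in butyrate skin, log2 -0.88 (SE 0.888, FDR 1). The RNA sensors Dhx58 (LGP2) and Ifih1 (MDA5) were at log2 -0.86 and -0.17, with groups apart for both. Among the transcription factors, Irf7, the main amplifier of type I interferon, was 28.5 and 24.8 against 17.7 and 18.6 CPM, log2 -0.55 (SE 0.764). Stat2 was 65.2 and 71.7 against 55.6 and 61.4 CPM, and Irf1 was at log2 -0.27. The IFIT genes, which bind viral RNA, ranged from log2 -0.26 to 0.15 and overlapped between groups in all 3 members. GBP and IRG members, which act on intracellular pathogens, ranged from -0.39 to 0.17.

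Class I antigen processing and chemokine members had log2 differences above 0, in 5 of 5 genes. In class I processing, Tap1, the peptide transporter of the endoplasmic reticulum, was 86.8 and 88.0 against 92.2 and 92.4 CPM, log2 0.08 (SE 0.403, FDR 1). The immunoproteasome subunits Psmb8 and Psmb9 were at log2 0.18 and 0.10. Cxcl10 was 2.46 and 1.94 CPM in CTL and 4.10 and 3.16 CPM in butyrate skin, log2 0.73 (SE 0.383, 95% interval -0.34 to 1.79, FDR 1). Ifi27l2a was 79.2 and 104 against 116 and 85.0 CPM, and those groups overlapped.

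**Figure D2:**
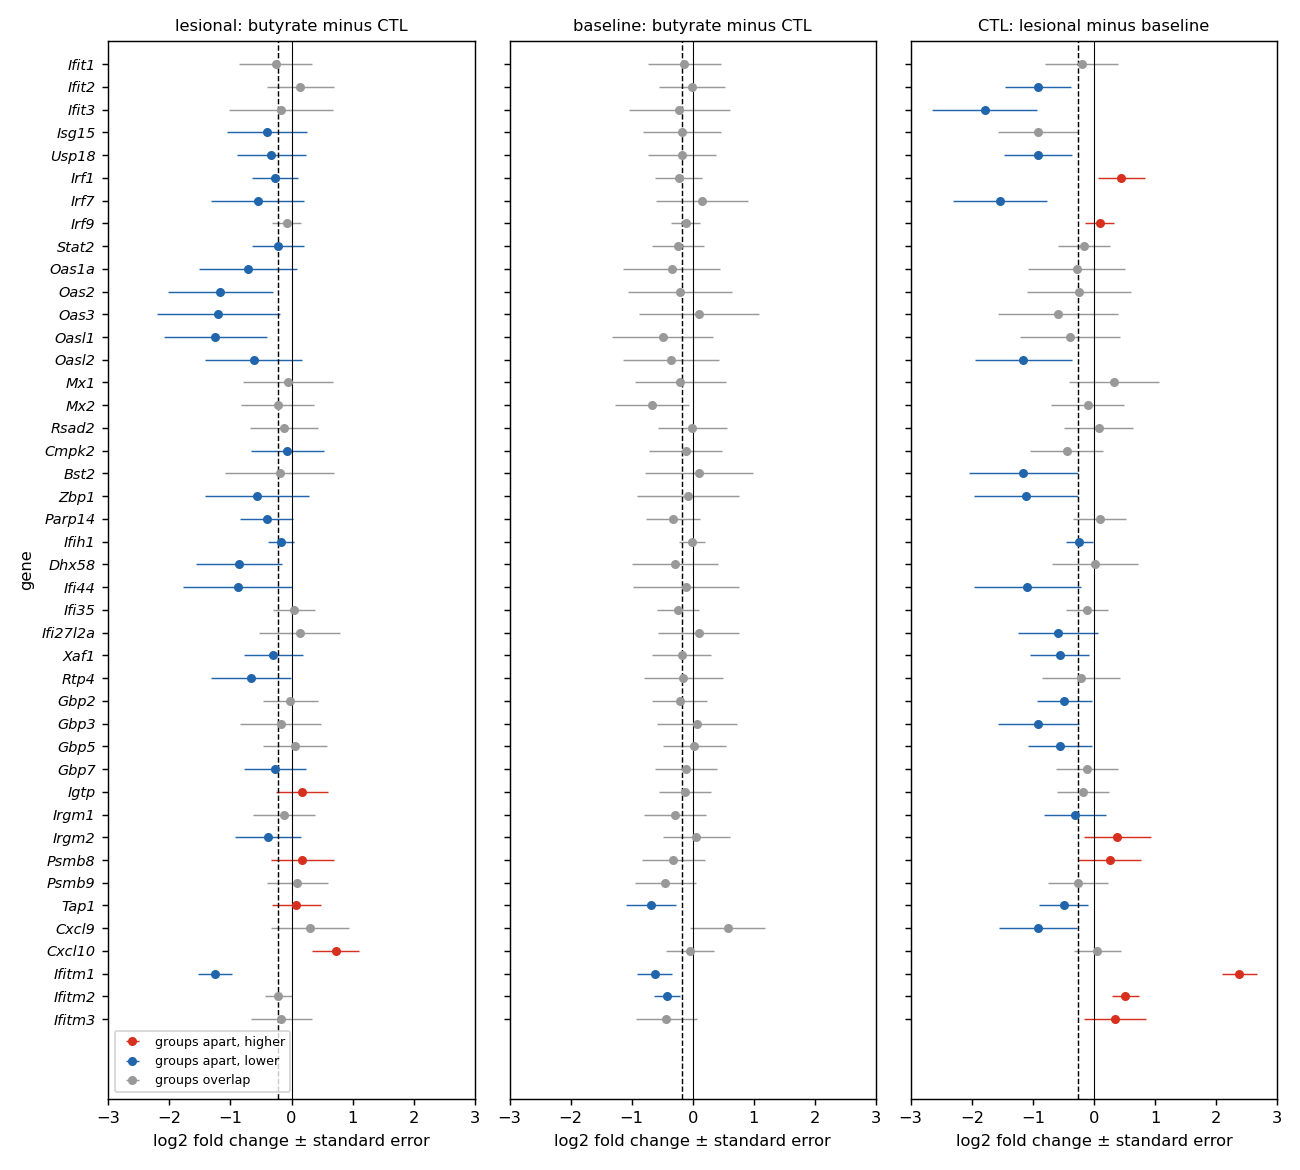
Log2 fold change of each member with its standard error, in 3 comparisons; red and blue points are members whose 2 groups did not overlap, grey those that did, and the dashed line is the members' median. In lesional skin Oas2, Oas3, Oasl1 and Ifitm1 lie farthest below 0, and Ifitm1 lies at 2.38 for lesional against baseline CTL.

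Markers of some other cells also differed between the lesional groups, and those of others overlapped. The summed level of neutrophil markers was 2913 and 1876 CPM in lesional CTL skin and 847 and 411 CPM in lesional butyrate skin, and it was 43.3 to 91.6 CPM in baseline skin. The macrophage and dendritic-cell marker sum was 1501 and 1743 CPM in lesional CTL against 839 and 1494 in lesional butyrate skin. In the same order, the endothelial sum was 467 and 444 against 304 and 429 CPM. The keratinocyte sum was higher in butyrate skin, 15247 and 14316 against 21163 and 19445 CPM. Sums overlapped for T and NK cells (105 and 56.2 against 66.1 and 55.9 CPM) and fibroblasts (6217 and 6917 against 3309 and 8403 CPM). Of the neutrophil markers tested, 11 of 11 were below 0 in butyrate skin. The plasmacytoid dendritic-cell marker sum was 104 to 129 CPM in all mice, but single markers differed. Of the 6 tested, 5 were above 0 in lesional against baseline CTL skin, at a median log2 of 0.84, and none passed. In lesional butyrate against lesional CTL skin 5 were below 0, at a median of -0.19, and none passed. The part of these cells in the member values was not tested.

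At baseline, again comparing butyrate with CTL, no member and no gene passed (0%), with 0 members and 529 genes at an unadjusted p under 0.05, 58 genes and 0 members by DESeq2 and 0 by limma-voom. The median log2 difference over the members was -0.18, and -0.40 by limma-voom. No member was above both CTL mice in both butyrate mice, against 13.8% of genes, and 3 (Tap1, Ifitm1 and Ifitm2) were below both, against 15.9%. Tap1 was 123 and 124 CPM in CTL and 112 and 42.2 CPM in butyrate skin, log2 -0.68 (SE 0.405, FDR 0.714). Ifitm1 was 9.89 and 8.05 against 7.50 and 4.19 CPM, log2 -0.62 (SE 0.285, FDR 0.714). Mx2 belongs to a family of antiviral GTPases, but GENCODE vM21 annotates it as a polymorphic pseudogene, so its RNA need not stand for a working protein. Mx2 was 4.95 and 9.49 against 6.88 and 2.24 CPM, log2 -0.67 (SE 0.605, FDR 0.717). Cxcl9 was 2.61 and 4.33 against 7.84 and 2.52 CPM, log2 0.57 (SE 0.618, FDR 0.735). Both overlapped.

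By role, the baseline medians ran from -0.45 in class I antigen processing to 0.26 in the chemokines, with -0.34 in the OAS family and -0.14 in the IFIT genes. The summed OAS level put 1 butyrate mouse above and the other below both CTL mice, at 252 and 33.6 CPM against 116 and 227 CPM. In the IFIT sum each group also held a high and a low mouse, 80.7 and 25.8 CPM against 29.3 and 87.9 CPM.

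These baseline values rest on single mice. Without baseline butyrate replicate 1, 30 members passed, all lower, at a median of -1.30, and 24.1% of genes passed. Without replicate 3, none passed and the median was 0.43. No direction for the members at baseline held across both. A fit with 1 mouse in a group assumes that it varies like the other groups.

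**Figure D3:**
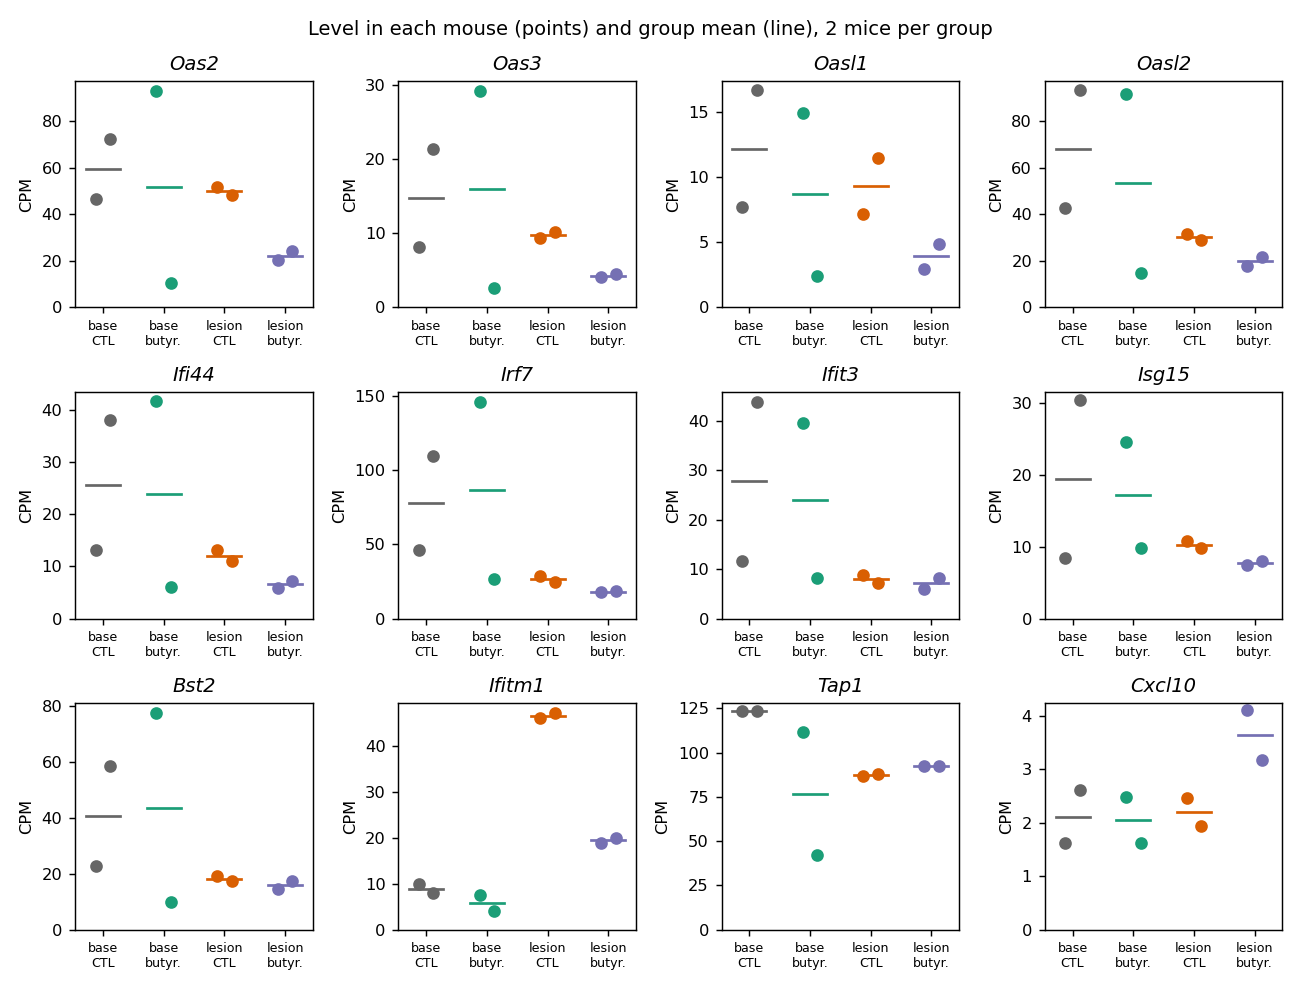
CPM of 12 members in each mouse, points by group with a line at the group mean; the vertical axes start at 0 and differ between genes. The 2 baseline mice of a group are often far apart, as for Oas2, while the lesional mice are close together, and Ifitm1 is highest in lesional CTL.

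The comparison of lesional with baseline CTL skin asks what HDM exposure did without butyrate. Ifitm1 rose: 9.89 and 8.05 CPM at baseline and 46.1 and 47.2 CPM in lesional skin, log2 2.38 (SE 0.290, FDR 0.0307), with no overlap. It was the only member to pass in the fit of all 8 mice, among 543 genes or 3.58% of those tested, and passed also by limma-voom and DESeq2. The call depended on the mice: leaving out either baseline butyrate mouse kept it, but leaving out any one of the 6 others lost it. Where it was lost, the number of genes called over the whole table fell as well. The log2 difference of Ifitm1 stayed between 2.24 and 2.53 in these fits. The other IFITM genes were at 0.51 (Ifitm2) and 0.34 (Ifitm3), higher in both lesional mice but not past the test.

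The median log2 difference was -0.26 over the members and -0.02 over all genes, and 31 of 43 members (72.1%) were below 0, against 51.3% of all genes. The members' direction rested on 1 mouse: the median was 0.12 without baseline CTL replicate 2 and -0.54 without replicate 1. Both lesional mice were below both baseline mice for 17 members, against 38.5% of all genes, and above both for 7, against 36.7%. Ifit3 was 11.7 and 44.0 CPM at baseline and 8.86 and 7.25 in lesional skin, log2 -1.79 (SE 0.860, FDR 0.307). Irf7 was 46.0 and 110 against 28.5 and 24.8 CPM, log2 -1.54 (SE 0.771, FDR 0.32), and Bst2 was 22.7 and 58.7 against 19.2 and 17.4 CPM, log2 -1.16 (SE 0.894, FDR 0.487). Oasl2 was 42.6 and 93.4 against 31.7 and 29.1 CPM, log2 -1.16 (SE 0.794, FDR 0.438). With both baseline butyrate mice left out, Ifit3, Oasl2, Irf7 and Bst2 passed as lower beside Ifitm1 as higher, 5 members in all, when 12.4% of genes passed.

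Lesional against baseline skin of butyrate mice gave no member past the test, among 53 genes (0.35%). At an unadjusted p under 0.05 in edgeR there were 3 members (Ifitm1 and Ifitm2 higher, Irf7 lower) and 13.1% of all genes. DESeq2 called 2, Ifitm1 higher and Irf7 lower, when it called 4.6% of all genes, and limma-voom called 0. The members' median was -0.40, and -0.11 by limma-voom. Values above both baseline mice were seen for 4 members, against 15.7% of genes, and below both for 4, against 16.9%. Irf7 was 146 and 26.8 CPM at baseline and 17.7 and 18.6 CPM in lesional skin, log2 -2.25 (SE 0.790, FDR 0.324), Oas3 gave -1.90 (SE 1.02), Ifi44 -1.86 (SE 0.902) and Ifit3 -1.75 (SE 0.860). Ifitm1 was 7.50 and 4.19 CPM against 19.0 and 20.1, log2 1.74 (SE 0.287, FDR 0.123). Without baseline butyrate replicate 3, 19 members passed, 18 of them lower, when 5.94% of genes passed. Without replicate 1, 11 passed, all higher, when 19.1% of genes passed, so the direction turned with the mouse left out.

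By role, the lesional CTL values relative to baseline CTL had medians of -0.92 in the IFIT genes and in Isg15 with Usp18, -0.56 in the IFI-type genes, -0.52 in the GBP genes and -0.39 in the OAS family. These values lean on baseline CTL replicate 2. In these roles, both lesional CTL mice were above replicate 1 for Ifit1, Isg15, Ifi35, Rtp4, Oas1a, Oas2 and Oas3. The transcription factors were divided, with Irf1 and Irf9 above 0 and Irf7 and Stat2 below it, and the Mx and other antiviral group ranged from -1.16 to 0.33. The IFITM family was the one group with every member above 0. Beside the CTL values, the lesional butyrate skin relative to its own baseline had medians of -0.76 (IFIT), -1.11 (Isg15 with Usp18), -0.68 (IFI-type), -0.41 (GBP), -1.21 (OAS) and 0.72 (IFITM). The class I processing members were at 0.26 to 0.75. Their rise leans on baseline butyrate replicate 3. Tap1 was 112 and 42.2 CPM in baseline butyrate replicates 1 and 3 and 92.2 and 92.4 CPM in lesional butyrate skin. Psmb9 was 29.6 and 9.24 against 23.1 and 24.1 CPM. Both genes were thus below replicate 1 and above replicate 3. Psmb8 was 61.4 and 17.4 against 68.9 and 63.7 CPM, above both.

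The difference of the butyrate effects in lesional and baseline skin was tested as an interaction. No member passed and no gene did (0%), with 0 members and 703 genes at an unadjusted p under 0.05, 37 genes and 0 members by DESeq2 and 0 by limma-voom. The largest member values were Oas3 at log2 -1.30 (95% interval -5.19 to 2.58), Oas2 at -0.96 (SE 1.20), Cxcl10 at 0.77 (SE 0.548), Ifi44 at -0.77 (SE 1.24) and Tap1 at 0.76 (SE 0.570, 95% interval -0.82 to 2.35, FDR 0.84). Tap1 was higher in both butyrate mice in lesional skin and lower in both at baseline, by values that did not pass. Without baseline butyrate replicate 1, 14 members passed, all higher, when 20.9% of genes passed, and without replicate 3 none did. The members' median was -0.12, and 0.13 by limma-voom.

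How far the members differed between mice of one group was itself large. Baseline CTL replicate 2 was above replicate 1 for 41 of 43 members, by a median of 1.61-fold, and 15 members (34.9%) were over 2-fold apart, against 3.11% of all genes. Ifit3 and Isg15 were farthest apart, at 3.77-fold and 3.59-fold, and Ifi44 and Zbp1, a nucleic acid sensor, both at 2.88-fold, while Tap1, Irf1 and Irf9 were close to equal. Baseline butyrate replicate 3 was below replicate 1 for all 43, by a median of 3.2-fold, and 38 (88.4%) were over 2-fold apart, against 28% of genes. Oas3 at 11.2-fold, Oas2 at 8.94-fold and Bst2 at 7.92-fold led. In both lesional groups no member was over 2-fold apart, against 2.61% (CTL) and 6.12% (butyrate) of all genes. Leaving the sign aside, the members' median log2 distance was 0.151 in the lesional CTL pair and 0.256 in the lesional butyrate pair. It was 0.689 in the baseline CTL pair and 1.679 in the baseline butyrate pair. The plot of pair ratios shows all 4 pairs.

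**Figure D4:**
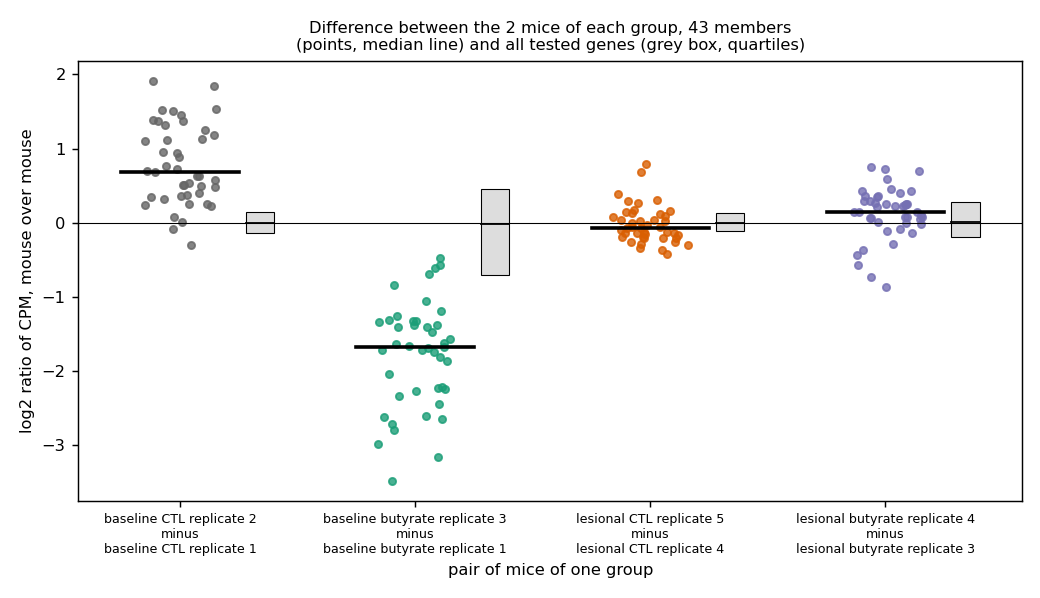
Log2 ratio of CPM between the 2 mice of each group, one point per member with a line at the median; the grey boxes give the quartiles over all tested genes. Members spread up in the baseline CTL pair and down in the baseline butyrate pair, and sit near 0 in both lesional pairs.

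The interferon pathway around these genes was read from lists of its ligands, receptors, signalling genes and sensors. Of 21 ligand genes sought, 19 were listed and none reached the filter. Only Ifng (9 counts), Ifnk (6) and Ifnab (4) had any reads over the 8 libraries. The other 16 were at 0, which allows up to 0.138 to 0.169 CPM per library, so ligand differences were not detectable at this depth. Receptors were measured at summed levels of 254 to 356 CPM: Ifngr1, Ifngr2 and Ifnar1 were the highest, and Ifnlr1, the type III receptor chain, fell in lesional CTL skin, 35.2 and 28.5 to 15.2 and 16.1 CPM, log2 -1.03 (SE 0.214, FDR 0.0762). In the same comparison Socs1, a feedback inhibitor of JAK kinases, rose from 5.06 and 4.83 to 15.1 and 13.2 CPM, log2 1.51 (SE 0.245, FDR 0.045), and Tmem173 (STING), the DNA-sensing adaptor, rose from 16.5 and 19.6 to 43.8 and 43.2 CPM, log2 1.27 (SE 0.245, FDR 0.0672). Of the 94 pathway genes tested, 2 passed as higher and 1 as lower there, when 3.58% of all genes passed. No gene of the whole table passed in that comparison once baseline CTL replicate 1 or 2 was omitted. Against lesional CTL, lesional butyrate skin had 0 of 94 past the test, when 0% of all genes passed. At an unadjusted p under 0.05 there were 4, all lower (Jak2, Socs1, Socs3 and Tmem173), against 4.84% of all genes. Of the 94, 70 were below 0, against 50.9% of all genes.

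Within the lists, 43 of 54 other interferon-inducible genes were below 0 in lesional butyrate skin, at a median of -0.26, and 7 of the 9 class I presentation genes, such as B2m and the class I heavy chains H2-K1 and H2-D1, were above 0, at a median of 0.17, as were the class I processing members. These genes were also chosen with earlier results of these data known. Oas1a, the IFIT, GBP and IFITM genes and Igtp with Irgm2 have close copies or overlapping exons, so their separate counts are uncertain.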

How the data were processed

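Skin RNA from 8 mice was sequenced from TruSeq RNA libraries, 1 per mouse. The deposited values are counts per protein-coding gene, which the authors made with STAR 2.5.2 alignment to GRCm38 and featureCounts with reverse-strand counting; whether the kit marked strand is not given in the sources used here, so reads of a gene and an antisense partner may not be told apart. Groups and replicate numbers were taken from the labels. The members, the lists and their roles were chosen with earlier results of these data known. Genes were filtered with filterByExpr (minimum count 10) and fitted over all 8 mice with a group-means model by edgeR 4.0.16 in R 4.3.3 (TMM scaling, robust glmQLFit, prior count 0.125, 4 residual degrees of freedom). P-values were adjusted by the Benjamini-Hochberg method over all 15163 genes, and a call needed FDR below 0.1 and fold-change above 2. The study names limma-voom. As alternatives, limma 3.58.1, DESeq2 1.42.0, relative log expression scaling, no filter, a prior count of 2, no fold threshold, only the mice compared, and leaving mice out were run. Values per mouse are given for members called in any comparison, the 5 members with the largest absolute log2 difference in each comparison and the 5 with the highest mean CPM; other members are given as ranges, and any named beyond that were chosen after their values were seen. A p-value tests a difference between group means against the spread between mice of one group, estimated over the 4 groups with information from other genes. Intervals are 95% and use only the 4 residual degrees of freedom, so they need not match the p-values. An exact permutation test of 2 against 2 mice cannot go below 0.333. Exon lengths came from GENCODE vM21 (GRCm38). The method was tested on simulated data in which the mice of a group shared the same mean levels. No simulated mouse stood apart as baseline butyrate replicate 3 did, so calls that depend on that mouse were not covered. No other sample's columns were present.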

Additional observations from a re-analysis of the deposited data

How the results depend on the processing

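Of 498 values of named members recomputed under the alternatives, 441 kept direction and side of the threshold, 37 passed it, 6 lost it and 14 changed sign. RLE scaling, no filter, a prior count of 2, no fold threshold and limma-voom on all 8 mice changed none of the counts of members called. For lesional butyrate against CTL, DESeq2 called 1 member when it called 0.818% of all genes. With only the 4 mice compared, 1 member and 0.168% of genes passed. By limma-voom on only those mice (chosen after seeing the data), 1 member and 0.094% of genes passed. Without both baseline butyrate mice, 2 members and 1.25% of genes passed. Lesional against baseline CTL gave 5 members with only the 4 mice compared, when 12.9% of genes passed. It gave 5 without both baseline butyrate mice, when 12.4% of genes passed. Lesional against baseline butyrate gave 2 with DESeq2, when 4.6% of genes passed. With single mice left out, the members called ranged from 0 to 2 (lesional butyrate against CTL), 0 to 30 (baseline butyrate against CTL), 0 to 5 (CTL, lesional against baseline), 0 to 19 (butyrate, lesional against baseline) and 0 to 14 (interaction). The members' median ranged from -0.31 to -0.14, from -1.30 to 0.43, from -0.54 to 0.12, from -0.90 to 0.71 and from -0.64 to 1.05 for lesional butyrate, baseline butyrate, HDM in CTL mice, HDM in butyrate mice and the interaction. By limma-voom on all 8 mice these medians were -0.21, -0.40, -0.23, -0.11 and 0.13, so that of the interaction changed sign. Log2 differences that changed sign ranged, with single mice left out, from -2.33 to 0.30 for Oasl1 and -0.46 to 1.17 for Cxcl9 at baseline; from -2.78 to 0.71 for Oas3 and -2.67 to 0.13 for Ifi44 for HDM in butyrate mice; from -2.18 to 1.30 for Oas3, -1.81 to 1.35 for Oas2 and -1.73 to 1.22 for Ifi44 for the interaction; and in lesional skin from -0.10 to 0.34 for Ifi27l2a, -0.086 to 0.76 for Cxcl9, -0.42 to 0.033 for Ifit3 and -0.72 to 0.15 for Mx2. The cause was not tested. No paired analysis was possible because each group held its own mice and the labels link none of them between groups. With 2 mice a group, standard errors of the members' log2 differences in lesional skin reached 1.01, and mice of one group differed by up to 11.2-fold. A group left with 1 mouse was assumed to vary like the others.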
